A study of Mus musculus with 6 samples.

Results

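The genes described here are 40 genes of mitotic entry, anaphase and chromosome condensation: the mitotic cyclins with Cdk1, the enzymes that switch Cdk1 on and off, mitotic transcription factors and kinases, the anaphase-promoting complex (APC/C) with its partners, separase and securin, condensin, cohesin, topoisomerase II alpha and Ki-67. They form a list by function whose rule uses no measured value, though it was chosen with earlier results of these data known. Each gene was found through the RefSeq transcript that its array probe names. All 40 had a matched probe. Of these, 38 had a probe that the scanner software marked as well above background on 3 or more arrays and so entered the test, among 24609 entries in all (a gene, or a probe with no matched gene). RNA came from mouse primary mammary epithelial cells, obtained by dissociating mammary glands of female mice aged 8 weeks on a mixed 129sv/C57Bl6 background. One group was labelled wild type (3 samples) and the other Plk2 -/-, null for this polo-like kinase gene (3 samples); no drug or other treatment is named for either. The labels do not describe how the null allele was made, nor do they say whether a sample came from 1 mouse or several, so p-values measure the spread between these samples only. The comparison asks which transcripts differ in mammary epithelial cells when Plk2 is missing.

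Cells enter mitosis when cyclin B-bound Cdk1 is freed from inhibitory phosphorylation: Wee1 and Pkmyt1 add the inhibitory phosphates and Cdc25 phosphatases remove them. Once chromosomes are attached to the spindle, the ubiquitin ligase APC/C, driven by Cdc20, marks securin and cyclin B for destruction, which frees separase to cut the cohesin rings that hold sister chromatids. Condensin and topoisomerase II alpha shape the chromosomes. In most tissues the transcripts of many of these genes are made mainly in G2 and mitosis, whereas cohesin rings and much of the APC/C are present throughout the cell cycle, so that the former are widely used as markers of proliferation.

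Each value below is the log2 processed signal of 1 array minus that array's 75th percentile, so 0 is the brightness at that percentile of the gene spots; it allows a gene to be compared between samples, not with another gene. Differences are null minus wild type on this log2 scale. Plk2 itself read 2.18, 2.22 and 2.38 in wild-type samples 1, 2 and 3 and -6.97, -7.20 and -7.0 in null samples 1, 2 and 3, where 0 of the 3 arrays had its probe well above background. The sources used here do not say which part of Plk2 was deleted. The share of probes well above background ran from 50.2% to 54.7% over the arrays, and 0 gene spots were saturated. Null sample 3 stood apart from the other 5 on the second principal component of all entries (74.0, the others -26.5 to 2.88). The wild-type group filled row 1 of the slide and the null group row 2, so position on the slide and genotype cannot be told apart. All 8 epithelial marker genes, among them Epcam, Krt8, Krt18 and Krt14, were well above background on every array, as the labelled cell type has it; so were all measured markers of fibroblasts (8), endothelium (6), myeloid cells (5) and adipocytes (4).

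Of the 38 genes tested, 37 had a higher mean in null than in wild-type cells, where 52.9% of all entries did. The median difference was 1.15 log2 units, against 0.031 over all entries. A total of 20 genes differed by more than 1, that is 2-fold, upwards, as 3.37% of all entries did. No gene of the list passed an adjusted p of 0.05 in either direction (limma, Benjamini-Hochberg over all entries), a level that 0.228% of entries reached with a higher value in null cells and 0.337% with a lower one. At an unadjusted limma p under 0.05, 25 genes were higher and 1 lower, against 13.5% and 9.54% of all entries. For 29 genes every null sample exceeded every wild-type sample, and for 1 every null sample was lower, against 19.6% and 12% of entries. At the looser adjusted p of 0.1, which was chosen after the data were seen, 13 genes were higher, against 3.62% of entries, and 0 lower, against 3.04% (limma; 1 lower at an unadjusted p under 0.05). Esco2 entered the test through its null arrays alone and is in each of these counts of higher genes. Over the 36 genes well above background on all 6 arrays the median difference was 1.04, and 35 had a higher mean in null cells. Of these 36, 24 were higher and 1 lower at an unadjusted limma p under 0.05. In that fit 3185 and 2144 of 21517 entries were. RNA from the whole preparation was measured, so more cells in division and more RNA per dividing cell cannot be told apart.

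**Figure D1:**
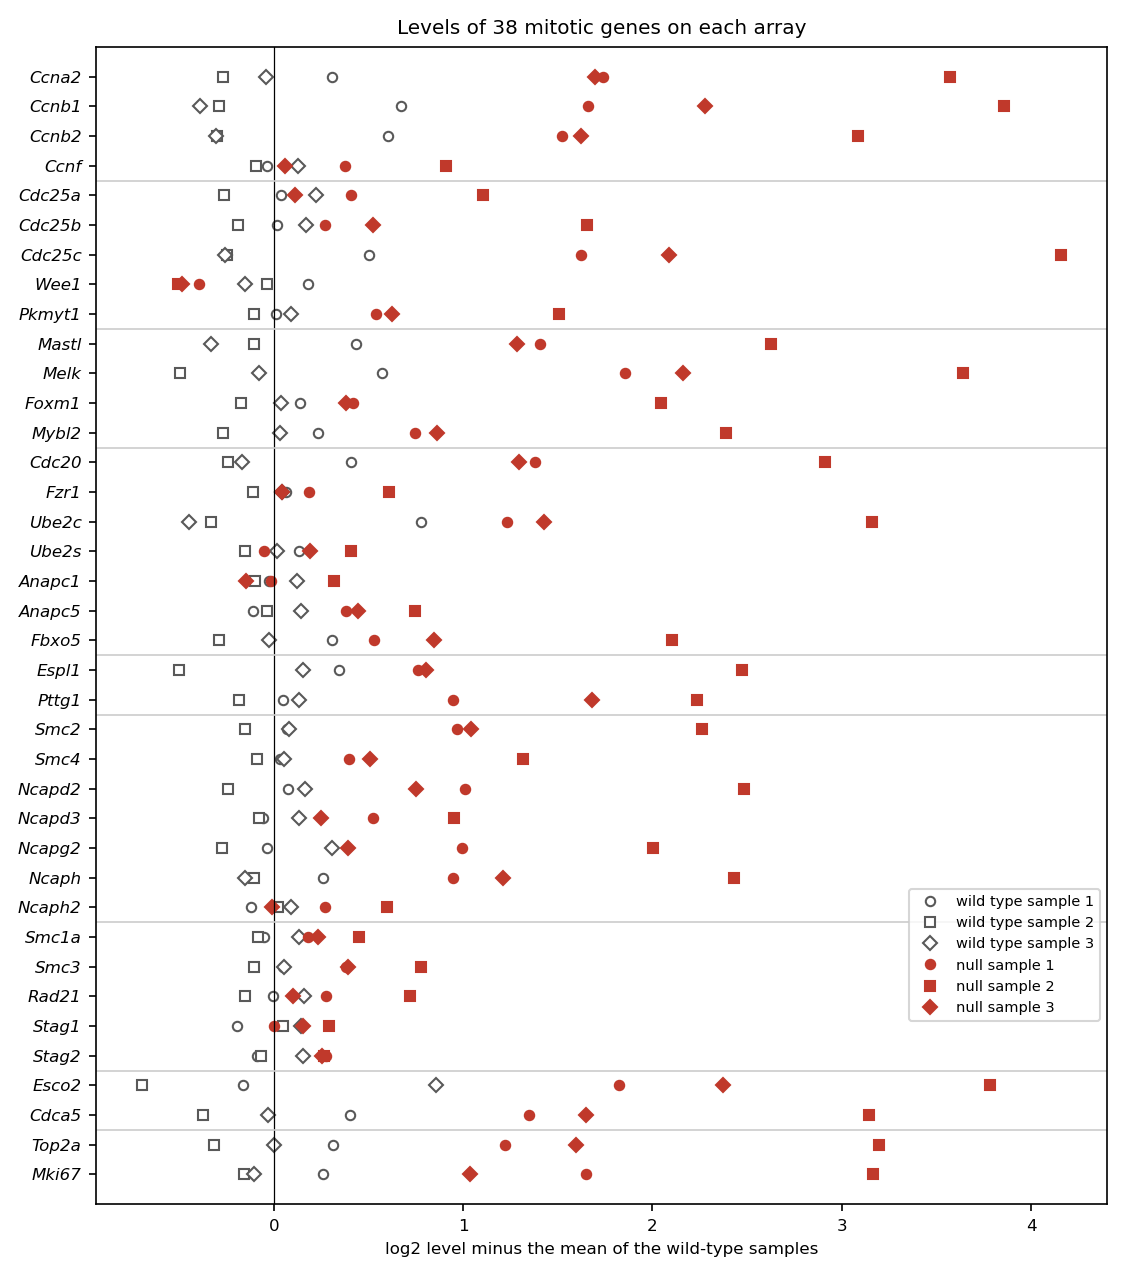
The horizontal axis gives the log2 level of each of the 38 genes on each array minus the mean of the 3 wild-type samples; open grey symbols are wild-type samples and filled red symbols null samples, and grey lines separate the groups of genes by role. Null sample 2 is the rightmost symbol for 36 of the 38 genes, while the cohesin ring genes stay within 1 log2 unit on all arrays.

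The 3 null samples were not alike in these genes. Null sample 2 held the highest of the 6 values for 36 of the 38 genes, against 21.8% of all entries; the exceptions were Stag2, highest in null sample 1, and Wee1, highest in wild-type sample 1. The median of the list lay 0.64 above the wild-type mean in null sample 1, 2.07 in null sample 2 and 0.69 in null sample 3. In the wild-type samples it lay at 0.073, -0.17 and 0.055, and sample 1 was the highest wild-type sample for 19 genes, against 33.5% of entries. Without null sample 2 the median difference was 0.69, with 22 genes higher at an unadjusted limma p under 0.05, where 9.42% of all entries were. For 17 of the 38 genes the difference was then smaller by more than 1.5 times, among them Mybl2 (1.33 to 0.80), Fbxo5 (1.16 to 0.69), Ncapd2 (1.42 to 0.88) and Ncapg2 (1.13 to 0.69). The counts that follow are again of genes higher at an unadjusted limma p under 0.05, beside the share of all entries. Without wild-type sample 1, 2 or 3 there were 21, 16 and 22 such genes, against 9.23%, 8.25% and 10.9%. Without null sample 1 or 3 there were 24 and 30, against 13% and 13.3%. With the replicate number as a block there were 22, against 9.95%.

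Sequences upstream of the genes are shown because many promoters of the G2 and mitosis class are known to carry a cell cycle genes homology region (CHR, read by the MuvB complex with B-Myb and Foxm1) close to CCAAT boxes, which bind NF-Y. RefSeq start sites on the GRCm38.p6 build gave promoters for 31 of the 40 genes. Each window runs from 250 bases before to 50 after the start. A CHR, searched as TTTGAA or TTCGAA on either strand, stood in the window of 18 of the 31 genes (58.1%), whereas 21.7% of all 27025 genes with a promoter hold it in any of theirs (19.2% of all 32851 promoters). A CCAAT box, searched as CCAAT on either strand, stood in 20 (64.5%) against 41.1% of genes (37.4% of promoters), and both together in 13 (41.9%) against 8.61% of genes (7.52% of promoters). An E2F site, searched as TTTCCCGC, TTTCGCGC, TTTGCCGC or TTTGGCGC on either strand, stood in 7 (22.6%) against 2.6% of genes (2.26% of promoters). Words that share bases in a promoter were each counted. By role, a CHR was found in 6 of 7 condensin genes, 3 of 4 cyclin and Cdk1 genes 4 of 7 genes of the APC/C group and both Top2a and Mki67, and in 0 of 3 cohesin ring genes and 0 of 3 kinase and transcription factor genes (Mastl, Melk and Mybl2) with a promoter. A match is a description of letters and says nothing of use: the promoters of Ccnb1, Melk and Pttg1 held no CHR in this window. The 110 bases ending just before the start are given for 6 genes with a difference above 1 and 2 cohesin ring genes with a smaller one, 5′ to 3′ on the strand of the gene, with CHR and CCAAT words in capitals.
Ccnb2: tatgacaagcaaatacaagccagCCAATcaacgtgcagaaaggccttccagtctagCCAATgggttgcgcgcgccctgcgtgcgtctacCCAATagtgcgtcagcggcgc
Cdc20: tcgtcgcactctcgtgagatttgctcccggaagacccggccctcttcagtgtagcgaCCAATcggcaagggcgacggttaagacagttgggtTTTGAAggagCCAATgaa
Ube2c: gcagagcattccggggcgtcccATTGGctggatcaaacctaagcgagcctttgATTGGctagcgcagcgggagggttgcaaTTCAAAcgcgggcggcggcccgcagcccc
Espl1: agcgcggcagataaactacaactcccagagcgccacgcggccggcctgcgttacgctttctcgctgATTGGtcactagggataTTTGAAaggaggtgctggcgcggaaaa
Cdca5: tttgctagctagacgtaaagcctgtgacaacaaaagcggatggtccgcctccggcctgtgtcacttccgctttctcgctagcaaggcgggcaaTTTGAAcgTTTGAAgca
Top2a: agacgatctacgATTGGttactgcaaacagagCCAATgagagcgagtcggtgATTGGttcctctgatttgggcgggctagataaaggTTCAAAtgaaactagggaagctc
Smc3: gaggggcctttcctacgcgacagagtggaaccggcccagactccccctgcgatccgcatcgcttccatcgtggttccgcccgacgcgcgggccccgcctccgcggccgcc
Stag1: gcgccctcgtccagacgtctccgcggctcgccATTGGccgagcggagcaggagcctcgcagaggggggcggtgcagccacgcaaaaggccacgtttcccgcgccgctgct
They lie at chr9:70421555-70421664 (minus strand) for Ccnb2, chr4:118437344-118437453 (minus strand) for Cdc20, chr2:164769819-164769928 (plus strand) for Ube2c, chr15:102296183-102296292 (plus strand) for Espl1, chr19:6084987-6085096 (plus strand) for Cdca5, chr11:99024190-99024299 (minus strand) for Top2a, chr19:53600286-53600395 (plus strand) for Smc3 and chr9:100643338-100643447 (plus strand) for Stag1. Cdc20, Ube2c, Espl1 and Top2a show a CHR within the last 30 bases before the start with a CCAAT word further upstream, Cdca5 shows a pair of CHR words with no CCAAT word, Ccnb2 shows 3 CCAAT words here, its CHR words lying outside this stretch, the Stag1 stretch holds a CCAAT word and, not in capitals, an E2F word, and the Smc3 stretch holds none of them. Among tested genes, the median difference in level was 1.38 over the 16 with a CHR and 0.54 over the 13 without. The same medians were 1.38 and 1.13 for CCAAT (18 and 11 genes) and 0.54 and 1.39 for E2F (5 and 24 genes), all given as a description.

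Of the 4 mitotic cyclins tested, 3 were higher in every null sample than in any wild-type sample, as 19.6% of all entries were. The median difference of the 4 was 2.21. Cyclin A2 (Ccna2), which partners Cdk2 in S phase and Cdk1 in G2, read -0.054, -0.63 and -0.41 in wild-type samples 1, 2 and 3 and 1.38, 3.21 and 1.33 in null samples 1, 2 and 3. The null values do not overlap the wild-type values, and the smallest gap, between null sample 3 and wild-type sample 1, exceeds the whole wild-type range. The difference was 2.34 (SE 0.51; 5.05-fold; limma adjusted p = 0.0833). Cyclin B1 (Ccnb1), the main activator of Cdk1 at mitotic entry, read -0.46, -1.42 and -1.53 in the wild-type samples against 0.52, 2.72 and 1.14 in the null samples. Here too all null samples lay above all wild-type samples, by 2.60 on average (SE 0.58; limma adjusted p = 0.0866). Its other kept probes, each well above background on 2 or fewer wild-type arrays, gave differences of 2.53 and 3.22. Cyclin B2 (Ccnb2), a Golgi-associated relative of cyclin B1, read 1.92, 1.02 and 1.02 in the wild-type samples against 2.84, 4.40 and 2.94 in the null samples, a difference of 2.08 (SE 0.47). Wild-type sample 1 was the highest wild-type sample for each of these 3 cyclins. Cyclin F (Ccnf), which does not bind a Cdk but acts as the substrate-binding part of an SCF ubiquitin ligase, differed by only 0.45 (95% confidence interval -0.11 to 1.01), and null sample 3 fell among the wild-type samples. Cdk1, the kinase itself, could not be compared: its brightest probe was well above background on 0 wild-type and 2 null arrays, with -5.34, -4.94 and -5.38 (wild type) and -5.11, -3.64 and -4.50 (null), and the other 2 probes on none. Against the lowest signal that counted as above background on the wild-type arrays, the mean of that probe in null cells was 1.16-fold higher, with no test. This is not a lower bound, since null sample 1, at -5.11, lay below the same limit on its own array, -4.98. The other 2 probes differed by -0.060 and -0.26.

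Of the 5 enzymes that set Cdk1 activity, 4 had a higher mean in null cells, where 52.9% of all entries did, and 1, Wee1, a lower one. Cdc25c, the phosphatase that acts at mitotic entry, read -3.80, -4.55 and -4.55 in the wild-type samples against -2.67, -0.14 and -2.21 in the null samples, a difference of 2.62 (SE 0.65; limma adjusted p = 0.0961). The probe was dim, failing the background criterion on 1 wild-type array, and the difference was 0.99 with another background correction. The relatives Cdc25b, which acts earlier in G2, and Cdc25a, which acts from G1 onwards, differed by 0.82 (SE 0.36) and 0.54 (SE 0.28), with confidence intervals of -0.049 to 1.68 and -0.13 to 1.22. Most of the Cdc25b difference lay in null sample 2, at 0.94 against -0.45 and -0.20 in null samples 1 and 3. Pkmyt1, the membrane-bound inhibitory kinase, read 1.82, 1.71 and 1.90 in the wild-type samples against 2.35, 3.32 and 2.44 in the null samples. It differed by 0.89 (SE 0.27; limma adjusted p = 0.134) without overlap of the groups. Wee1, the nuclear inhibitory kinase, was the single gene of the list with a lower mean in null cells. It read 1.33, 1.12 and 1.0 in wild-type samples 1, 2 and 3 and 0.75, 0.65 and 0.67 in null samples 1, 2 and 3, so that the 3 null samples sat within 0.11 of each other and below every wild-type sample. The difference was -0.46 (SE 0.15; limma adjusted p = 0.142). With arrays scaled on spike-in controls, which shifts the median of all entries from 0.031 to 0.32, Wee1 differed by -0.18 (limma adjusted p = 0.678). That value is below the shifted median. With this scaling, and without wild-type sample 1, 0 genes of the list were lower at an unadjusted limma p under 0.05.

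Kinases and transcription factors of the mitotic programme were higher in every null sample than in any wild-type sample for all 4 genes, against 19.6% of all entries. Melk, a kinase related to AMPK that is abundant in proliferating cells, had the smallest p of the list. It read -1.33, -2.40 and -1.99 in wild-type samples 1, 2 and 3 and -0.053, 1.73 and 0.25 in null samples 1, 2 and 3, a difference of 2.55 (SE 0.51; 5.86-fold; limma adjusted p = 0.0723). Mastl, the greatwall kinase that restrains the phosphatase opposing Cdk1, read -3.46, -4.0 and -4.22 in the wild-type samples against -2.49, -1.27 and -2.61 in the null samples, with a difference of 1.77 (SE 0.40). This probe is dim, and the difference was 0.58 with normexp and 0.66 with the deposited intensities. Mybl2 (B-Myb), the factor that joins MuvB to switch on late cell cycle genes, differed by 1.33 (SE 0.44). Foxm1, which acts on the same genes after B-Myb, read -0.61, -0.92 and -0.71 in the wild-type samples against -0.33, 1.30 and -0.36 in the null samples. Its null samples 1 and 3 were little above wild type, and the difference of 0.95 (confidence interval -0.12 to 2.02) was 0.40 without null sample 2. Further probes gave 0.96 for Mybl2 and 0.71 for Foxm1, where the groups of the latter overlapped.

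**Figure D2:**
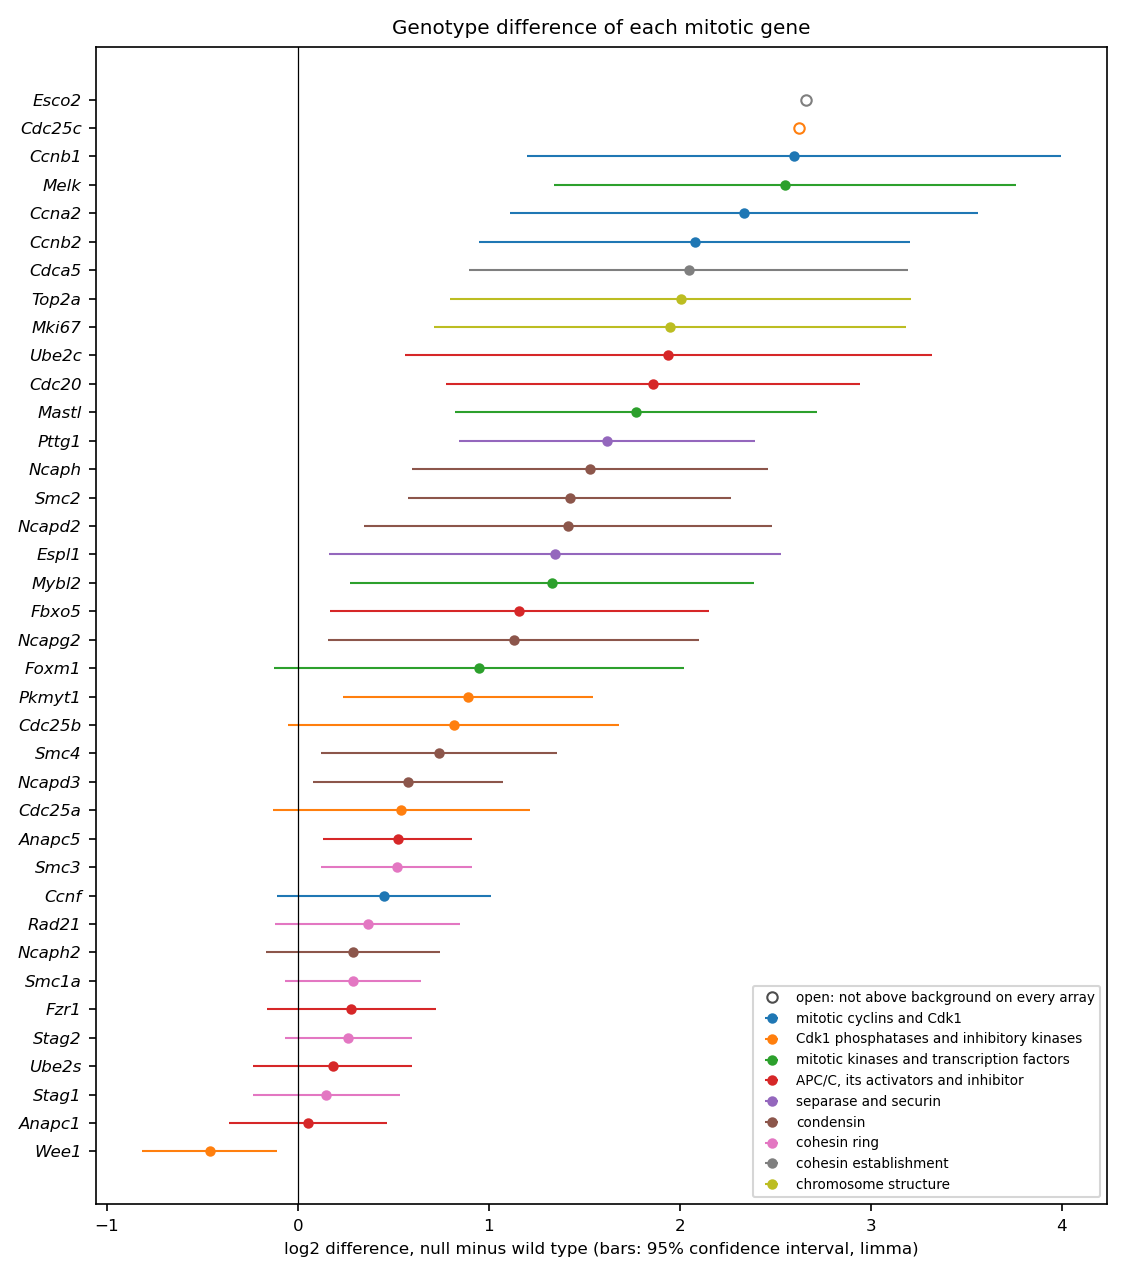
Each point is the log2 difference, null minus wild type, of 1 gene, with the limma 95% confidence interval as a bar and colour for the role; n = 3 samples a group. Open symbols with no bar are Esco2 and Cdc25c, which were not well above background on every array and lie at 0.47 and 0.99 with normexp; the others run from Ccnb1 at 2.60 down to Anapc1 at 0.053 and Wee1 at -0.46.

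Of the 7 genes of the APC/C and its partners, 4 were higher in null cells without overlap of the groups, against 19.6% of all entries. Another count, of differences above 1, was 3 (Cdc20, Ube2c and Fbxo5), against 3.37% of entries, and the median difference was 0.52. Cdc20, the activator from prometaphase to anaphase, read 1.74, 1.09 and 1.17 in wild-type samples 1, 2 and 3 and 2.72, 4.24 and 2.63 in null samples 1, 2 and 3, without overlap, and differed by 1.86 (SE 0.45; 3.63-fold; limma adjusted p = 0.0961). Fzr1 (Cdh1), the activator of late mitosis and G1, read 2.42, 2.25 and 2.40 in the wild-type samples against 2.54, 2.96 and 2.40 in the null samples. Null sample 3 fell between wild-type samples, and the difference was 0.28 (confidence interval -0.16 to 0.72). A further probe of Fzr1 gave 0.40, with null sample 1, at 1.144, just below wild-type sample 1, at 1.146. Ube2c, the ubiquitin-conjugating enzyme that starts chains on APC/C substrates, read 1.32, 0.21 and 0.092 in the wild-type samples against 1.77, 3.70 and 1.97 in the null samples, a difference of 1.94 (SE 0.58; limma adjusted p = 0.126), and 2.08 by a further probe. Ube2s, which extends those chains, differed by 0.18 (confidence interval -0.23 to 0.60), with null sample 1 below wild-type sample 1. Fbxo5 (Emi1), the inhibitor of the APC/C in S and G2, differed by 1.16 (SE 0.42), its lowest null value of -0.66 lying just above the highest wild-type value of -0.88. The scaffold subunit Anapc1 read 2.99, 2.92 and 3.14 in the wild-type samples against 3.0, 3.34 and 2.87 in the null samples, a difference of 0.053 whose interval of -0.36 to 0.46 leaves out a change of 2-fold in either direction; its sign turned with quantile normalization (-0.0055).

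Anapc5, another scaffold subunit, gave opposite values on its 2 probes. The brighter probe read 6.27, 6.34 and 6.52 in the wild-type samples against 6.76, 7.13 and 6.82 in the null samples, a difference of 0.52 (SE 0.16; limma adjusted p = 0.137). The dimmer one, also well above background on all 6 arrays, read 0.25, 0.31 and 0.36 in the wild-type samples against -2.67, -2.40 and 0.63 in the null samples. On that probe null samples 1 and 2 thus lay at least 2.65 below every wild-type sample, while null sample 3 lay above them all. The cause was not tested. Of the 12 further kept probes of the list, this was the 1 whose sign differed from the probe reported.

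Among the other subunits of the APC/C, 11 of 12 listed genes were tested, with a median of 0.32. All 11 had a positive difference, against 52.9% of all entries. None passed an adjusted p of 0.05 (limma), while 3 were higher at an unadjusted p under 0.05, against 13.5% of all entries: Cdc26 at 0.67 (SE 0.14; limma adjusted p = 0.0812), Cdc16 at 0.42 (SE 0.14) and Anapc15 at 0.57 (SE 0.21). Anapc13 came next by p, at 0.35 (SE 0.16). The small subunit Cdc26 read 1.90, 1.84 and 2.11 in the wild-type samples against 2.56, 2.59 and 2.70 in the null samples, without overlap and with all 3 null samples close together.

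Separase and its inhibitor were both higher in every null sample than in any wild-type sample, as 19.6% of all entries were. Securin (Pttg1), which holds separase inactive until anaphase, read 2.11, 1.88 and 2.20 in wild-type samples 1, 2 and 3 and 3.01, 4.30 and 3.75 in null samples 1, 2 and 3. The groups are 0.81 apart at their nearest, and the difference was 1.62 (SE 0.32; 3.07-fold; limma adjusted p = 0.0726). A further, dimmer probe gave 0.95. Separase (Espl1), the protease that cuts cohesin, read -2.05, -2.90 and -2.24 in the wild-type samples against -1.63, 0.076 and -1.59 in the null samples, a difference of 1.35 (SE 0.50; limma adjusted p = 0.177) that was 0.78 without null sample 2.

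Condensin is built on the Smc2 and Smc4 ATPases, to which condensin I adds Ncapd2, Ncapg and Ncaph and condensin II adds Ncapd3, Ncapg2 and Ncaph2. Of the 7 condensin genes tested all were higher on average in null cells, with a median difference of 1.13. For 6 of them the unadjusted limma p was under 0.05 and the groups did not overlap, against 13.5% and 19.6% of all entries. Smc2 read -0.02, -0.24 and -0.011 in the wild-type samples against 0.88, 2.17 and 0.95 in the null samples, a difference of 1.42 (SE 0.35; limma adjusted p = 0.0961). The wild-type samples agreed within 0.23 and the nearest null sample lay 0.89 above them. Its partner Smc4 differed less, by 0.74 (SE 0.26). In condensin I, the kleisin Ncaph, which closes the ring, read 1.20, 0.83 and 0.79 in the wild-type samples against 1.89, 3.37 and 2.15 in the null samples (difference 1.53, SE 0.39). The HEAT-repeat subunit Ncapd2 read 1.45, 1.13 and 1.54 in the wild-type samples against 2.38, 3.86 and 2.12 in the null samples (difference 1.42, SE 0.45). Ncapg, the remaining subunit of condensin I, was well above background on 0 wild-type arrays and on null sample 2 alone, at -3.47, and was not tested. In condensin II, Ncapg2 differed by 1.13 (SE 0.41) and Ncapd3 by 0.58 (SE 0.21), while the kleisin Ncaph2 read 3.73, 3.87 and 3.94 in the wild-type samples against 4.12, 4.45 and 3.84 in the null samples. The groups overlapped for Ncaph2 on this probe, and its difference was 0.29 (confidence interval -0.17 to 0.74). A further probe gave 0.50 without overlap, the groups lying 0.0036 apart at their nearest.

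The cohesin ring had small differences. Its core genes Smc1a, Smc3 and Rad21 and the alternative subunits Stag1 and Stag2 had differences from 0.15 to 0.52, with a median of 0.29. The ATPase gene Smc3 read 2.97, 2.82 and 2.98 in the wild-type samples against 3.30, 3.70 and 3.31 in the null samples, a difference of 0.52 (SE 0.17; limma adjusted p = 0.142) without overlap. The other ATPase gene, Smc1a, differed by 0.29 (confidence interval -0.069 to 0.64), also without overlap. Rad21, the kleisin that separase cuts, read 3.90, 3.75 and 4.06 in the wild-type samples against 4.18, 4.62 and 4.0 in the null samples, with null sample 3 among the wild-type values and a difference of 0.37 (confidence interval -0.12 to 0.85). For Stag2 the null samples agreed within 0.023, at 3.44, 3.43 and 3.41, above the wild-type values of 3.07, 3.10 and 3.32. Confidence intervals of all 5 ring genes lay below 1 in this fit, so a 2-fold higher level is outside each of them.

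Of the listed factors that establish cohesion in S phase, Cdca5 was higher in every null sample than in any wild-type sample, as 19.6% of all entries were. Esco2 is not set against that share, since it passed the filter through its null arrays alone. Esco2, the S-phase acetyltransferase of Smc3, was not well above background on any wild-type array and was on all 3 null arrays. It read -5.96, -6.49 and -4.94 in the wild-type samples against -3.97, -2.02 and -3.42 in the null samples, at least 2.82-fold higher in null cells on this signal. That bound sets the null mean against a floor: on each wild-type array, the lowest level still well above background, or the level of the probe itself if greater. It does not carry over to other background corrections: the log2 difference was 0.47 with normexp and 0.55 with the deposited intensities, and the authors' deposited table gives a fold of 1.47. Since Esco2 entered the test through its null arrays alone, no p is given for it. Sororin (Cdca5), which keeps acetylated cohesin on chromatin, read 0.35, -0.43 and -0.089 in wild-type samples 1, 2 and 3 and 1.29, 3.09 and 1.59 in null samples 1, 2 and 3. Its probe is printed 10 times on each array, and the 10 spots had an SD of 0.042 to 0.080 within an array, which measures the spread of spots and not of samples. Between samples the SD was 0.39 in wild type and 0.96 in null cells, and the nearest samples of the groups lay 0.94 apart. The difference was 2.05 (SE 0.48; 4.13-fold; limma adjusted p = 0.0912). In a wider list of cohesin loading, release and protection genes, 9 of 13 were tested, with a median of 0.082 and 7 positive, against 52.9% of all entries. None was called (limma), and 1 was higher at an unadjusted p under 0.05, against 13.5% of entries. That gene was shugoshin 1 (Sgo1), the protector of centromeric cohesin, which read -1.30, -1.88 and -1.61 in the wild-type samples against 0.20, 1.66 and 0.17 in the null samples, a difference of 2.28 (SE 0.42; limma adjusted p = 0.0645). The next by p were Pds5a at 0.36 (SE 0.17), Pds5b at 0.26 (SE 0.15) and Hdac8, the Smc3 deacetylase, at 0.23 (SE 0.14).

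Of the chromosome structure genes, Top2a, which disentangles sister chromatids, read -0.37, -0.99 and -0.68 in the wild-type samples against 0.54, 2.52 and 0.92 in the null samples. It differed by 2.0 (SE 0.51; 4.01-fold; limma adjusted p = 0.097). Mki67, which coats mitotic chromosomes and is the standard proliferation marker, read 1.91, 1.49 and 1.55 in the wild-type samples against 3.30, 4.82 and 2.68 in the null samples, a difference of 1.95 (SE 0.52; limma adjusted p = 0.104), and 1.96 by its further probe. Null sample 1 exceeded null sample 3 for Mki67, the reverse of the order for Top2a. Of the other chromosome scaffold genes listed, the chromokinesin Kif4 differed by 2.24 (SE 0.56; limma adjusted p = 0.0961), whereas topoisomerase II beta (Top2b), the form also used by resting cells, differed by 0.17 (SE 0.14). Nifk, a binding partner of Ki-67, and Akap8 differed by 0.077 and 0.055.

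Partners of the mitotic kinases gave a mixed picture, with 9 of 11 listed genes tested and a median of 0.13. None passed an adjusted p of 0.05 (limma), and 3 were higher at an unadjusted p under 0.05, against 13.5% of all entries. The Cdk-binding subunits Cks1b and Cks2 differed by 1.07 (SE 0.26; limma adjusted p = 0.0961) and 1.17 (SE 0.27; limma adjusted p = 0.0891), and Cdk2 by 0.61 (SE 0.17). The targets of greatwall include Arpp19, which came next by p and differed by 0.26 (SE 0.14). Of the MuvB and related genes, 11 of 13 were tested, with a median of 0.15 and none called. At an unadjusted limma p under 0.05, 4 were higher, against 13.5% of all entries. Those 4 were Lin9, the MuvB subunit that contacts B-Myb, at 0.64 (SE 0.15; limma adjusted p = 0.0959), the pocket protein gene Rbl1 at 0.96 (SE 0.31), Tfdp2 at 0.59 (SE 0.20) and Tfdp1 at 0.53 (SE 0.21).

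Pairs of related genes were also set side by side without any scaling between arrays, by subtracting the level of the second from that of the first on each array. This could be done for 4 of 6 pairs, since Cdk1 and Ncapg were not kept. The pairs were chosen with earlier results of these data known, so the values are a description. Cdc20 minus Fzr1 was -1.02 ± 0.30 in wild type and 0.56 ± 0.62 in null cells (SD, n = 3 each), a shift of 1.58 towards Cdc20. Cdca5 minus Rad21 shifted by 1.68, from -3.96 ± 0.36 to -2.28 ± 0.69. Smc2 of condensin minus Smc3 of cohesin shifted by 0.91, its wild-type values lying between -3.06 and -2.99 and its null values between -2.42 and -1.53. Cdc25c minus Cdc25b shifted by 1.81, but by 0.33 with another background correction and 0.41 with the values of the authors' deposited table; the groups overlap under that background correction. On the processed signal every null sample exceeded every wild-type sample in all 4 pairs, and 3 samples against 3 allow no 2-sided exact permutation p below 0.1.

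**Figure D3:**
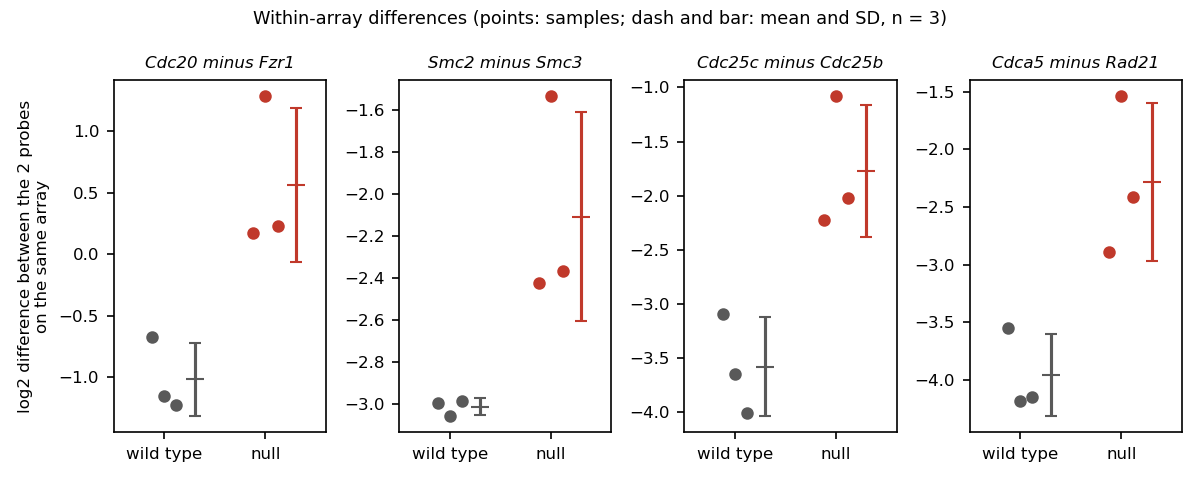
Each panel shows, for 1 pair of genes, the log2 level of the first minus that of the second on the same array; points are samples, the dash and bar are the mean and SD of 3 samples, and each panel has its own axis. The null points lie above the wild-type points in all 4 panels, by 0.56 to 0.87 at the nearest.

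In the authors' deposited table, none of the 37 tested genes with a single row for the reported probe met both of that table's criteria, an unadjusted p under 0.01 and a fold over 1.4 as its last column states, which 0.823% of its gene rows met with a higher and 0.717% with a lower value in null cells. The lowest of these p-values in the authors' deposited table was that of Melk, 0.0144 with a fold of 3.99, followed by Pttg1 at 0.0199 and 2.8. For Ccnb1 the authors' deposited table gives 0.0253 and a fold of 4.2, and for Wee1 0.0252 and -1.39, the sign marking a lower value in null cells. With these deposited intensities in the same limma fit 1 gene of the list, Melk, passed an adjusted p of 0.05, against 1.54% of entries higher. With another background correction 10 passed, all higher, against 2.92% of entries: Ccna2, Ccnb1, Ccnb2, Cdc20, Cdca5, Melk, Ncaph, Pttg1, Smc2 and Top2a. With spike-in scaling Ccnb1, Melk and Pttg1 passed, against 1.01% of entries.

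Markers of other cell types moved with the groups as well. All 11 lymphocyte marker genes were measured and all were lower in every null sample than in any wild-type sample, each at an unadjusted limma p under 0.05 and none at an adjusted p of 0.05, where 12% of all entries were lower without overlap. The summed level of these 11 genes, as multiples of the 75th percentile signal, was 25.6 to 44.1 in wild type and 6.02 to 12.7 in null samples. Of the 11 genes, 8 were well above background on every null array. Among null arrays sample 3 had the highest sum, 12.7, and among wild-type arrays sample 1 had 44.1. Fibroblast marker sums were 1725 to 1885 and 1159 to 1634 over all 8 genes, endothelial sums 85.6 to 105 and 47.6 to 97.1 over all 6, and myeloid sums 106 to 140.2 and 118 to 121 over 5 of 6. Adipocyte sums over 4 of 5 genes were 188 to 334 and 247 to 443. Such sums are set mostly by the brightest genes, such as Fabp4 among adipocyte and Krt18 among epithelial genes. The 8 fibroblast genes had differences from -0.67 to -0.20, 5 of them lower without overlap, against 12% of entries. Those of the 6 endothelial genes ran from -0.55 to -0.090, with overlap. Of the 5 myeloid genes, Csf1r was lower (-0.56) and Cd14 higher (0.44), both without overlap, against 12% and 19.6% of entries. Epithelial sums were 2014 to 2065 and 1931 to 2524, while single epithelial genes differed: Elf5, a luminal progenitor transcription factor, by 1.71 (SE 0.29; limma adjusted p = 0.0571) and the basal keratin Krt14 by 0.92 (SE 0.33), both without overlap, and the basal keratin Krt5 by 0.97 (SE 0.44) with overlap. Null sample 2, which had the highest mitotic levels, had the lowest endothelial and fibroblast sums of the 6 arrays, and its lymphocyte sum was near that of null sample 1, 6.1. The part of cell composition in the mitotic differences was not tested.

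**Figure D4:**
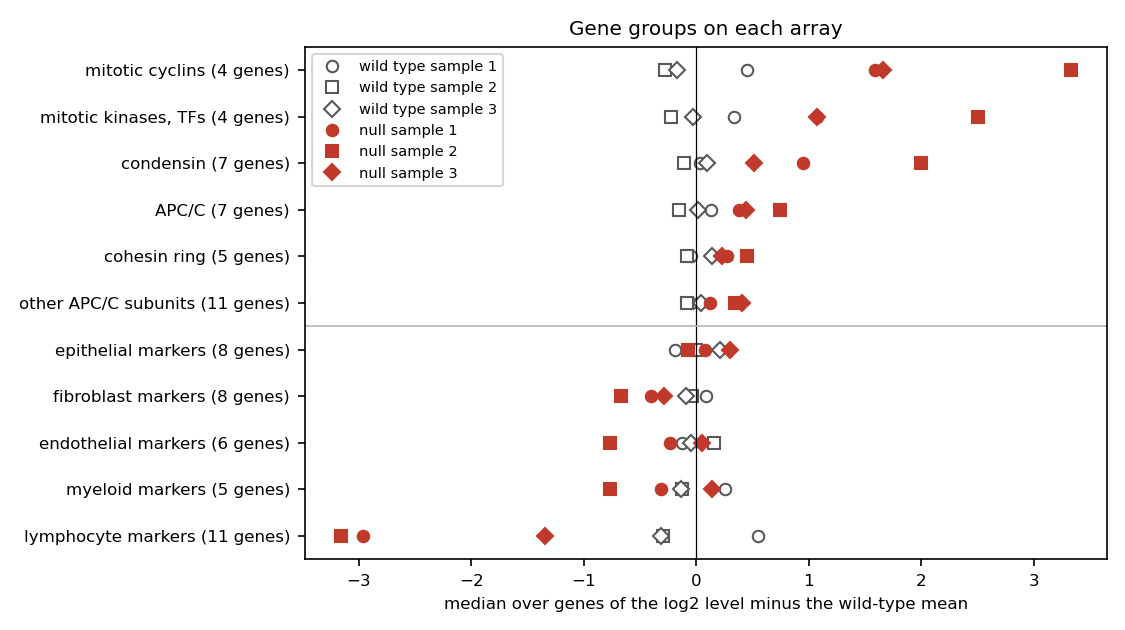
Points give, for each group of genes and each array, the median over the genes of the log2 level minus the mean of the wild-type samples; open grey symbols are wild-type and filled red symbols null samples, and the grey line separates mitotic groups from cell type markers. The cyclin medians lie at 1.59, 3.33 and 1.66 in null samples 1, 2 and 3 and those of the cohesin ring at 0.27, 0.45 and 0.23, while lymphocyte markers lie at -2.97, -3.16 and -1.35.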

How the data were processed

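Expression was measured on 1-colour Agilent arrays (design 028005, annotated on mm9 per the file headers) in 6 samples, 3 for each genotype. Trizol was used to extract RNA and Cy3 to label it after amplification, per the labels' protocols. The deposited intensity of a spot was read with Agilent Feature Extraction 11.0.1.1, per the file headers, and is a background-corrected linear brightness, not normalized between arrays; median spot and background intensities served for 1 alternative. A deposited table of the authors also gives normalized intensities, a p-value, a ratio (wild type divided by null) and, as a score, a signed fold in each row; the sources used here do not say how.

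Control spots and spots marked as outliers (1119 gene spots over the 6 arrays) were left out, log2 signals were centred on each array's 75th percentile and spots of a probe were averaged. Probes were named by RefSeq transcript, 26582 of 55681 of them, for 20145 genes. For each gene the brightest probe among those well above background on at least 3 of 6 arrays was taken; probes without a match were kept as single entries. Genotypes were compared with lmFit and eBayes of limma 3.58.1 (R 4.3.3) over all 24609 entries with Benjamini-Hochberg adjustment; the steps were tested on simulated data. The smallest p of exact permutation tests was obtained with scipy 1.17.1. The precision is limited by the number of arrays. The members and lists were chosen with earlier results of these data known. All 40 members are named, with the 4 genes of smallest p in each pathway list. Samples were not treated as paired by replicate number, since the labels name nothing that same-numbered samples share. Alternatives were another background correction, other scalings, filters and probe choices, the replicate number as a block, the deposited values and leaving out each sample.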

Additional observations from a re-analysis of the deposited data

How the results depend on the processing

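Counts of entries called over the whole array, 56 higher and 83 lower, depended on the processing. They were 718 and 514 with normexp background correction, 179 and 167 with median centring, 248 and 129 with spike-in scaling, 5 and 26 without a filter on dim probes, 204 and 176 with probes well above background on all 6 arrays, 378 and 378 with the deposited table's values, and 892 and 747 at an adjusted p under 0.1, a threshold added after seeing the data. Leaving out a sample gave 1 to 239 higher and 6 to 465 lower, the highest without null sample 3. Of the mitotic genes 0 were called higher, against 10 with normexp, 3 with spike-in scaling, 1 with the deposited values and 13 at an adjusted p under 0.1; 0 were called lower in any setting. Leaving out a sample gave 16 to 30 mitotic genes higher at an unadjusted limma p under 0.05, against 8.25% to 13.3% of all entries. The median difference of the mitotic genes was then 0.69 (without null sample 2) to 1.41. With the replicate number as a block, 2 entries were called higher and 6 lower, 0 of them mitotic genes. In that fit 22 mitotic genes were higher at an unadjusted limma p under 0.05, against 9.95% of all entries. Deviations of same-numbered samples from their group means correlated at -0.12, 0.038 and -0.018, and those of differently numbered samples at -0.17 to 0.21. With 3 samples a group these values cannot show whether same-numbered samples share a litter or a day, which the labels do not state. Of 568 values of single mitotic genes under 15 alternatives, 551 kept their direction and side of the threshold, 14 passed it only in the alternative and 3 changed sign: Anapc1, to -0.0055 with quantile normalization and -0.081 without null sample 2 (-0.081 to 0.15 when each sample was left out), and Anapc5, to -0.63 with the mean of its probes. Part of this agreement was fixed in advance. The replicate block and the changed filters leave the difference of a gene's probe as it is, as does the mean of probes for genes with 1 kept probe. In those values only the side of the threshold could change. The within-array differences kept their direction in every alternative run; leaving out a sample gave 1.22 to 1.78 for Cdc20 minus Fzr1, 0.62 to 1.06 for Smc2 minus Smc3, 1.46 to 2.05 for Cdc25c minus Cdc25b and 1.31 to 1.98 for Cdca5 minus Rad21. With normexp 5 mitotic genes had a difference smaller by more than 1.5 times (Cdc25c, Esco2, Espl1, Mastl and Ncaph2), and with the deposited values 8 did. Dim probes, among them Cdc25c, Esco2, Mastl, Cdk1 and Ncapg, limit what can be said of those genes. The cause of these shifts was not tested.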
